A study of Mus musculus with 14 samples.

Results

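The regions described here are stretches of the mouse genome that gave an ATAC-seq peak in all libraries of the RPR2 lines and in no library of the RPR2;Nfibf/f lines. Peak intervals of all 14 libraries on chromosomes 1 to 19 and X were joined wherever they overlapped by at least 1 bp. A region counted as open in a line if both its libraries had a peak there and as closed if neither had. The RPR2-only regions were open in 1373M1, 12N1G and N2N1G and closed in 1398M1, 1399M4, 1398P2 and 1399P1. They numbered 1446 of 119314 regions that were open in at least 1 line (1.21%) and of 177577 merged regions in all. Among the 37428 regions open in all 3 RPR2 lines they made up 3.86%. The mirror set, open in all 4 RPR2;Nfibf/f lines and closed in the 3 RPR2 lines, held 763 regions, 0.639% of the 119314 and 3.51% of the 21732 regions open in all 4 RPR2;Nfibf/f lines.

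The study used ATAC-seq, in which a transposase cuts accessible DNA, on 7 cell lines from mouse small cell lung cancer, each with 2 libraries. The RPR2;Nfibf/f lines were 1398M1 and 1399M4, grown from liver metastases, and 1398P2 and 1399P1, grown from lung tumors. The RPR2 lines were 1373M1, from a liver metastasis, and 12N1G and N2N1G, from lymph node metastases. In this field RPR2 names mice in which Rb1, Trp53 and Rbl2, all tumor suppressor genes, are conditionally deleted. All 7 lines share it by label, and Nfibf/f denotes a floxed allele of Nfib on top of it. The labels name neither the Cre driver nor the excised exons. Each line is a single cell line, the labels do not say whether its libraries came from separate cultures, and the names of 1398M1 and 1398P2 begin with the same digits, as those of 1399M4 and 1399P1 do. Genotype and tissue of origin were crossed only in liver metastases, so that in the other lines the 2 cannot be told apart.

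Accessible regions away from gene starts are for the most part enhancers and other regulatory elements, which differ between cell states far more than promoters do. NFIB is a member of the nuclear factor I family, which binds palindromic TTGGC motifs as a dimer and is known in small cell lung cancer for raised expression, gene amplification and a link with metastasis. Basic helix-loop-helix factors, a large family with roles in neural and neuroendocrine cells, bind short motifs called E-boxes.

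A few gene starts lay under RPR2-only regions, and their sequence shows what such a start looks like. RefSeq promoter windows, 250 bases before to 50 after an annotated start on GRCm38.p6, touched 27 of the regions in 34 windows of 28 genes, 12 of them protein-coding and 16 long non-coding. Shown are the bases upstream of the start that lie in the region, 5′ to 3′ on the strand of the gene, for 5 protein-coding genes and for 2 non-coding ones that hold TTGGCA. Capitals mark the NFI-type motif TTGGCA, the E-box that reads CAGCTG and the E-box that reads CAGATG, all taken on either strand. The genes encode CSRNP3, a nuclear protein, SPATA4, a testis protein, TCF20, a transcriptional coregulator, AKAP6, an anchoring protein of kinase A, and doublecortin, a microtubule protein of migrating neurons.
Csrnp3, chr2:65845549-65845766, plus strand: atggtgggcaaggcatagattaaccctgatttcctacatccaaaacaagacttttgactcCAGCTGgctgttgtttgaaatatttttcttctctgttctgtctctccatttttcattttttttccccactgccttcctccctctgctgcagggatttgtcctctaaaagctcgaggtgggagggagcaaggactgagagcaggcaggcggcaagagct
Spata4, chr8:54600559-54600780, plus strand: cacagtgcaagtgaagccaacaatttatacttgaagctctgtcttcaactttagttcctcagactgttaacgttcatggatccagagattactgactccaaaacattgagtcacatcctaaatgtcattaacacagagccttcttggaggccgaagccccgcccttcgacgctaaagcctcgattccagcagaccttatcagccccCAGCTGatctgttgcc
Tcf20, chr15:82912135-82912331, minus strand: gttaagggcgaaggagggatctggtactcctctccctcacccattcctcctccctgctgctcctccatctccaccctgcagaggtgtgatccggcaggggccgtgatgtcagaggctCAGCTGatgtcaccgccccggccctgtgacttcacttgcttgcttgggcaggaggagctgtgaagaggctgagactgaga
Akap6, chr12:52699223-52699382, plus strand: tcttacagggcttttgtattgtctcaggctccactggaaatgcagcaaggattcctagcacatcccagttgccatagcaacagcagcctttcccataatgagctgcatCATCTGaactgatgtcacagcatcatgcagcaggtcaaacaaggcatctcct
Dcx, chrX:143933220-143933391, minus strand: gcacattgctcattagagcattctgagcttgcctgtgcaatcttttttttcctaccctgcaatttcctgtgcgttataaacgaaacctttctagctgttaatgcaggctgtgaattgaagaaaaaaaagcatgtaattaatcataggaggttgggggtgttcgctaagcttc
Gm35079, chr14:72042937-72043186, minus strand: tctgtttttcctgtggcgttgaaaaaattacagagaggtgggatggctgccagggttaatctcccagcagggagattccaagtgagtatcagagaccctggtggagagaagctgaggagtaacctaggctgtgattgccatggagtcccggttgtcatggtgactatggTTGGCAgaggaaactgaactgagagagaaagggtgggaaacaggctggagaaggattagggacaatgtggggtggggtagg
Gm33175, chr8:12319481-12319730, minus strand: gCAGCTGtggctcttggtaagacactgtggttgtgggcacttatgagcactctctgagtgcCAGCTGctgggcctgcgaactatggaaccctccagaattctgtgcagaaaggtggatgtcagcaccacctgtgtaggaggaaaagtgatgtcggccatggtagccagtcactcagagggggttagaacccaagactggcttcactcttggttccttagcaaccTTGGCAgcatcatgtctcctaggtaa

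Csrnp3, Spata4 and Tcf20 each held 1 CAGCTG in the printed stretch and Akap6 held 1 CAGATG. Gm33175 held 1 TTGGCA and 2 CAGCTG, and Gm35079 held 1 TTGGCA. The printed stretch of Dcx held none of the 3 motifs. Over whole windows, TTGGCA was present in 9 of 34 (26.5%) under RPR2-only regions and in 9.52% of 42 windows under the mirror set of RPR2;Nfibf/f-only regions. It was present in 16.4% of 1880 windows under RPR2-open regions with a peak in some RPR2;Nfibf/f libraries and in 14.1% of all 32619 windows. CAGCTG was present in 35.3%, 23.8%, 23.5% and 16.4% of these sets in the same order, and CAGATG in 26.5%, 16.7%, 16% and 17.1%. At Spata4 and in a window of Dcx, the TTGGCA did not lie within the RPR2-only region. The full NFI palindrome, TTGGC and GCCAA with 5 bases between them, occurred in 0 of the 34 windows and in 0.0368% of all windows. Several windows of a gene overlap and share bases, so that 34 windows are fewer than 34 independent sequences. A match describes letters only and shows no binding.

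The windows under RPR2-only regions were poor in CpG. Their median ratio of observed to expected CpG was 0.204, against 0.302 under RPR2;Nfibf/f-only regions, 0.543 under regions open in all RPR2 lines with a peak in some RPR2;Nfibf/f libraries and 0.802 under regions open in all 7 lines. Median GC content was 52.7%, 53.3%, 58% and 62.7% in the same order. Over all 32619 windows the median ratio was 0.387 and the median GC content 53%. GC content under RPR2-only regions was thus near that of all windows. For Kcnip3, Tmod2 and Pitpnm2 the RPR2-only region lay at an alternative start, and another annotated start of each had a peak in 14 of 14 libraries. Another start of Csrnp3 had a peak in 9 of 14.

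All 14 libraries entered the choice of the regions, so their pattern across libraries is a description and was not tested. Peaks per library numbered 33519 in replicate 2 of 1398P2 and 64975 to 84199 in the other 13. Depth, read as the genome-wide background that fold enrichment and p-value of a summit imply, was 0.507 fragments per bp in that library and 0.632 to 1.13 in the others. Without it the rule found 1447 regions, against 1446 with it. Among marker genes, all 8 of the neuroendocrine list were marked by a gene-end peak in every library. Peaks at a gene end were found for 3 to 4 of 4 lung epithelial, 1 to 3 of 6 hepatocyte, 1 to 3 of 6 fibroblast and 2 to 4 of 7 lymphoid and myeloid genes. Of 6 endothelial genes, 3 to 4 had one in RPR2;Nfibf/f libraries, against 4 to 5 in RPR2 libraries. RPR2-only regions lay at Ptprc of the lymphoid list (1), Erg of the endothelial list (2) and Pdgfra of the fibroblast list (1), and whether other cell types contributed to the regions was not tested.

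RPR2-only regions were of middling strength within the RPR2 libraries, and their peaks there were narrower than those of other RPR2-open regions. The median width of the merged regions was 570 bp (95% interval of the median 559 to 584), against 780 bp in the 763 RPR2;Nfibf/f-only regions and 927 bp in the 35982 other regions open in all RPR2 lines. A merged region spans the peaks of all libraries that contribute, 6, 8 and up to 14 in these sets, so merged widths do not compare directly. Within single RPR2 libraries, the widest peak of a region had a median of 370.5 to 417 bp in RPR2-only regions, against 445 to 509 bp in regions with a peak in some RPR2;Nfibf/f libraries and 740 to 817 bp in regions open in all 7 lines. Strength was read as the percentile rank of the fold enrichment among all peaks of a library, 100 being the strongest. The median rank of RPR2-only regions was 46.5 and 44.5 in replicates 1 and 2 of 1373M1, 47 and 49.5 in those of 12N1G and 46.4 and 47.4 in those of N2N1G. The 6 library medians thus lay close together, with an SD of 1.6. In the same libraries the median was 54.8 to 60 for regions with a peak in some RPR2;Nfibf/f libraries and 79 to 79.9 for regions open in all 7 lines.

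**Figure D1:**
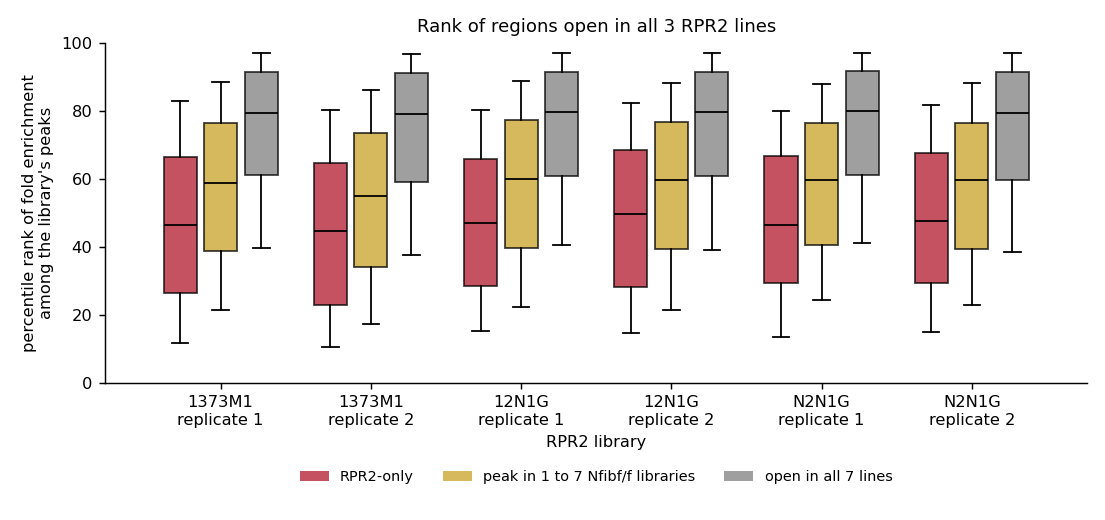
Percentile rank of fold enrichment in each of the 6 RPR2 libraries for RPR2-only regions (left box), regions also peaked in 1 to 7 RPR2;Nfibf/f libraries (middle) and regions open in all 7 lines (right). Boxes span the quartiles with the median as a line, whiskers run from the 10th to the 90th percentile, and the RPR2-only medians lie between 44.5 and 49.5, below both other sets in every library.

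Averaged over the 6 libraries, 10 RPR2-only regions ranked above 90, 126 above 75 (8.71%) and 202 below 25 (14%). A single region varied considerably between libraries, with a median range of 37.2 percentile points over the 6 libraries. The median absolute difference between the libraries of a line was 9.72 points in 1373M1, 10.5 in 12N1G and 9.85 in N2N1G. The means of 12N1G and N2N1G differed by 8.45 points, and the mean of 1373M1 differed from that of the lymph node lines by 15.8. A mean over libraries varies less than a single library, so these values do not compare directly with those within lines. All 4 lymph node libraries ranked above both 1373M1 libraries in 375 regions and below both in 307.

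The strongest RPR2-only regions were spread over the genome and mostly far from gene ends. The highest mean rank, 94.9, belonged to a region inside Rit2 on chromosome 18, which encodes a neuronal small GTPase. Its ranks were 98.6 and 97.7 in 1373M1, 97.5 and 98 in 12N1G and 84.6 and 93.2 in N2N1G. The next was inside Slc24a2, a potassium-dependent sodium-calcium exchanger gene, at chr4:87088624-87089193. It ranked 84.9 and 80.5 in 1373M1, 99.3 and 99.4 in 12N1G and 98.6 and 98.9 in N2N1G, so that the lymph node lines were higher. The third, at chr1:137254894-137255500, lay 294445 bp from Nr5a2, its nearest protein-coding gene, which encodes an orphan nuclear receptor. It ranked 99.6 and 97.8 in 1373M1, 94.9 and 96.9 in 12N1G and 79.2 and 91.2 in N2N1G. Regions whose nearest protein-coding genes were Tespa1, Adgrl3, St8sia2, Capn15, Eno1b, Gli3 and Pmaip1 completed the first 10, with mean ranks of 91.4 to 93. The distance was 102 bp for Capn15, 7949 bp for Tespa1, 44728 bp for Pmaip1 and 46526 bp for St8sia2. It was 83173 bp for Gli3, 287312 bp for Eno1b and 624961 bp for Adgrl3, so that these names mark places and no link to the gene. Adgrl3 encodes an adhesion receptor of synapses, St8sia2 a sialyltransferase that builds polysialic acid on NCAM, and Gli3 a transcription factor of Hedgehog signaling. Of these 10 regions, the one near Capn15, a calpain gene, was the only one within 1 kb of a gene end.

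A cut of the lists by p-value bears on how far the set depends on weak peaks. Every list was cut to its 33519 peaks of lowest p-value, the length of the shortest list, with fold enrichment used only for ties. Of the 1446 RPR2-only regions, 161 (11.1%) still had a peak in all 6 RPR2 libraries. The same held for 29.9% of the regions with a peak in some RPR2;Nfibf/f libraries and for 77% of those open in all lines. The rule then found 1138 regions, of which 14.1% were among the 1446. Most RPR2-only regions thus rest, in at least 1 RPR2 library, on a peak outside the 33519 of lowest p-value. Of the RPR2-only regions at single genes, 1 of 7 at Adamtsl1, 1 of 5 at Gabbr2, 1 of 5 at Magi1 and 0 of 3 at Nfib were among these 161.

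Regions 1 library short of the rule together outnumbered the regions themselves. Of the regions open in all RPR2 lines, 996 had a peak in exactly 1 of the 8 RPR2;Nfibf/f libraries. That single peak was in 1398M1 in 99 regions for replicate 1 and 284 for replicate 2, and in 1399P1 in 260 and 248. It was in 1399M4 in 52 and 26 and in 1398P2 in 26 and 1. A further 992 regions had peaks in 0 of 8 RPR2;Nfibf/f and 5 of 6 RPR2 libraries, and the missing peak was in replicate 2 of 1373M1 in 335 of them. Where a single RPR2;Nfibf/f library had a peak, that peak ranked low there, with medians of 14.7 to 22. Among whole lines, 1118 regions were open in the RPR2 lines and 1399P1 alone of the RPR2;Nfibf/f lines, 714 in 1398M1 alone, 88 in 1399M4 alone and 2 in 1398P2 alone. With a line left out of the rule altogether, it found 3078 regions without 1399P1, 2557 without 1398M1 and 5546 without 1373M1, so that these lines set the number of regions most.

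Choosing regions on 1 replicate left the other for a reading that the choice had not used. On replicate 1 of all 7 lines, 2949 regions were found with a peak in all 3 libraries of RPR2 lines and in none of the 4 of RPR2;Nfibf/f lines. In replicate 2, 49% of them showed the full pattern again, 1.02% had no peak in any library and 0 showed the opposite pattern. Of all 148727 regions with a peak in some replicate 2 library, 1.92% showed the pattern. Chosen on replicate 2 and read in replicate 1, the share was 50.8% of 2849, against 1.89% of all regions with a peak. The libraries of a line may be technical repeats, so this measures repeatability within lines and says nothing of other animals.

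RPR2-only regions lay mostly away from gene ends. Strand and exons are missing from the gene table, so either end of a protein-coding gene was counted. Such an end can be a start or a 3′ end, so the count is not one of promoters. The promoter windows described above, which carry strand, touched 27 RPR2-only regions, those at non-coding genes included. Within 1 kb of such an end were 66 regions (4.56%, exact binomial 95% interval 3.55 to 5.77), against 5.77% of RPR2;Nfibf/f-only regions, 11% of regions with a peak in some RPR2;Nfibf/f libraries and 55.2% of regions open in all 7 lines. With ends of any annotated gene, non-coding ones included, 139 regions (9.61%) were within 1 kb, against 14% of RPR2;Nfibf/f-only regions, 18.1% of regions with a peak in some RPR2;Nfibf/f libraries and 61.3% of regions open in all 7 lines. A gene body was overlapped by 789 (54.6%), 743 of them away from its ends. The remaining 637 (44.1%) were outside genes. Both shares were near those of regions with a peak in some RPR2;Nfibf/f libraries (54.6% and 44%) and of all regions open in at least 1 line (57.1% and 41.7%). More than 100 kb from any gene end were 385 (26.6%), against 14.7% of RPR2;Nfibf/f-only regions and 5.98% of regions open in all lines. It was 18.7% of regions with a peak in some RPR2;Nfibf/f libraries and 19.8% of all regions open in at least 1 line. The median distance to the nearest end was 35139.5 bp.

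This placement was shared with other regions that the RPR2;Nfibf/f lines lacked in part. The share near a gene end was 4.02% to 5.67% for regions with a peak in 1 to 4 RPR2;Nfibf/f libraries, which lies within the interval of the RPR2-only regions. It was 8.77%, 10.3% and 18.4% with a peak in 5, 6 and 7 libraries. The share more than 100 kb from a gene end was 27.9%, 24%, 21.9% and 26.1% with a peak in 1, 2, 3 and 4 libraries, against 26.6% of RPR2-only regions. Merged width had medians of 570, 622.5, 684, 694, 733, 777, 780, 811 and 1119 bp for 0 to 8 libraries, and it grows with the number of lists merged. Peak width within single RPR2 libraries had medians of 370.5 to 417 bp at 0, 397.5 to 456.5 bp at 1 and 438 to 525 bp over the sets from 2 to 7, which showed no steady increase. The share near a gene end was low at every strength: 6.93%, 4.26%, 3.74% and 5.56% of RPR2-only regions with mean ranks of 0 to 25, 25 to 50, 50 to 75 and 75 to 100. Regions open in all lines had 37.3%, 34.6%, 44.6% and 66.3% in the same bands. In number, RPR2-only regions were 10.1% of the lowest band of RPR2-open regions and 0.919% of the highest.

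**Figure D2:**
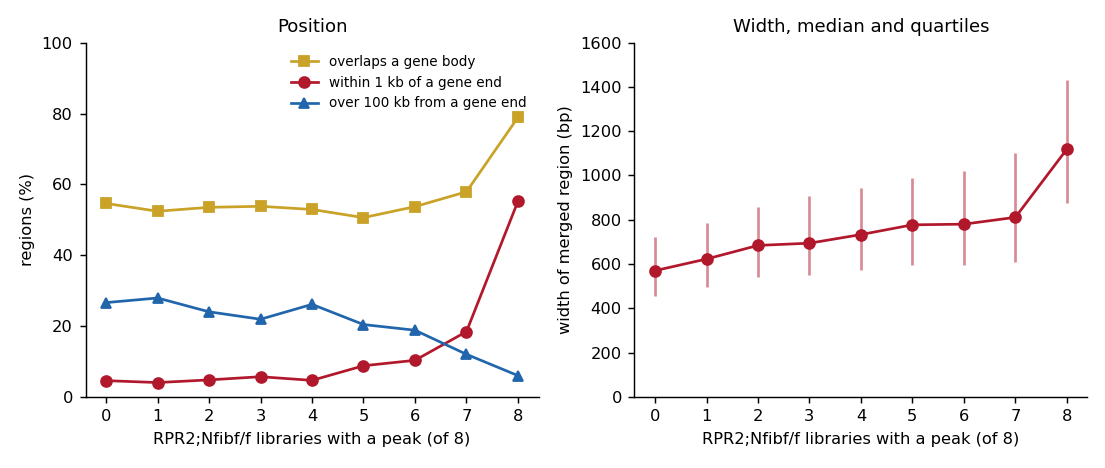
Position (left, % of regions) and merged width (right, median and quartiles in bp) of regions open in all 3 RPR2 lines, by the number of RPR2;Nfibf/f libraries with a peak, 0 being the 1446 RPR2-only regions and 8 the 17795 regions open in all 7 lines. The share within 1 kb of a gene end is 4.56% at 0 and 55.2% at 8, and most of the difference falls between 7 and 8.

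The 66 regions at gene ends had mean ranks up to 92.2, and the first 20 by mean rank are named here. Of these 20, only the regions at Csrnp3, Spata4 and Henmt1 touched a promoter window. The others, the one at Capn15 included, need not lie at a gene start. The strongest were at Capn15 (92.2), Bpifa1, a secreted airway protein gene (87.7), Psme3ip1 (85.4), Csrnp3 (84.2), Rtl6 (82) and Rbp7, a retinoid-binding protein gene (77.8). Spata4, Phtf1, Wdsub1, the olfactory receptor gene Olfr223 and Nptx2, a synaptic pentraxin gene, followed with 65.9 to 77.6. Further down came Lrmp with Casc1, Lamp5, a membrane protein gene of brain neurons, Mmp16, a membrane-bound metalloproteinase gene, Angel1, Treh with Phldb1, Ghrh, the gene of growth hormone-releasing hormone, Henmt1, Fndc7 and Aanat with Rhbdf2, with 56.6 to 65.5. Csrnp3 ranked 50.1 to 93.5 over the 6 RPR2 libraries and Capn15 90.2 to 94.8, so that the Capn15 region was the steadier of the 2.

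At Nfib itself, 3 RPR2-only regions lay inside the gene, and they were among the weakest of the set. The region at chr4:82433971-82434302 ranked 10.9 and 2.04 in 1373M1, 1.16 and 17.2 in 12N1G and 10.1 and 6.02 in N2N1G. The region at chr4:82498053-82498570 ranked 8.76 and 11.5, 5.5 and 1.83, and 5 and 2.1 in the same libraries. The region at chr4:82499317-82499634, 7117 bp from a gene end, had a mean rank of 5.44. No rank of these 3 regions exceeded 17.2 in any RPR2 library. Another RPR2-only region, 77768 bp beyond the gene, ranked 12.8 to 37.6. Local background of a locus is given here and below as the 10th percentile over its summits, which is a low reading. Over the span of these 4 regions it was 1 to 1.47 times the genome-wide level in the RPR2;Nfibf/f libraries. It was 1 and 1.18 times in 1373M1 and 2.16 to 2.87 times in the lymph node libraries. Whether any of them lies in the excised segment was not tested. Of the other NFI genes, Nfix held 1 RPR2-only region, with ranks of 37 to 75.

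Genes that held several RPR2-only regions were long. With 10 kb added on both sides of each protein-coding gene, 895 regions (61.9%) fell in 896 genes, 5.6% of the 16005 genes with any RPR2-open region. The share of regions that fell in genes was 65.7% for regions with a peak in some RPR2;Nfibf/f libraries and 66.9% for all regions open in at least 1 line. Of the 896 genes, 788 held 1 region, 83 held 2 and 25 held 3 or more. The 25 genes had a median length of 422 kb, against 77.4 kb for genes with an RPR2-only region and 22.8 kb for genes with any RPR2-open region, and 23 of them exceeded 100 kb. Length moves with the count of any regions in a gene, and its part in these counts was not tested.

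Adamtsl1, which encodes a secreted matrix protein related to the ADAMTS proteases, held 7, the highest count. They were 7 of the 15 RPR2-open regions of this gene (46.7%), and none of the 15 was open in all 7 lines. Regions with a peak in or around it numbered 3, 4, 18, 18, 4, 3, 17 and 11 in the libraries of 1398M1, 1399M4, 1398P2 and 1399P1, against 22 and 23 in 1373M1, 38 and 34 in 12N1G and 36 and 40 in N2N1G. The RPR2 counts include the 7 regions that the rule itself fixed. Without these, 1373M1 had 15 and 16, within the RPR2;Nfibf/f range of 3 to 18, and the lymph node libraries had 27 to 33, above it. Local background there was 1 to 1.36 times the genome-wide level in RPR2;Nfibf/f libraries, against 1 to 1.08 times in RPR2 libraries. The 7 regions had mean ranks of 25.1 to 70.2, and the highest, at chr4:86425487-86426532, ranked 50.2 to 82.7.

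Gabbr2, a subunit of the metabotropic GABA receptor, held 5 of 14 RPR2-open regions as RPR2-only, and Magi1, a scaffold of cell junctions, also 5 of 14. Other regions with a peak, those outside the RPR2-only set, numbered 2 to 18 at Gabbr2 in RPR2;Nfibf/f libraries, against 16 to 21 in RPR2 libraries, so that the genotypes overlapped. At Magi1 they numbered 7, 8, 12, 11, 9, 1, 33 and 27 in RPR2;Nfibf/f libraries, against 19 to 21 in RPR2 libraries. The 2 libraries of 1399P1 thus had more of them at Magi1 than any RPR2 library. The strongest RPR2-only region at Magi1, at chr6:94189311-94189822, ranked 75.8 to 97.2.

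Sorcs2, a sorting receptor related to sortilin, Macrod2, Pabpc4, a poly(A)-binding protein gene, and Grik3, a kainate receptor subunit, held 4 each, of 24, 21, 6 and 14 RPR2-open regions in the same order. The other 17 with 3 each, beside Nfib, were Prep, Ntn1 (the axon guidance cue netrin), Atxn7l1, Ldlrad3, Kcnq1 (a potassium channel), Gse1, Setbp1, Rbfox3 and Rbfox1 (neuronal splicing factors), Plxna4 (a semaphorin receptor), Zfp536, Foxp1 (a forkhead factor), Arhgap24, Wwox, Auts2, Lsamp (a neuronal adhesion protein) and Ptprd (a synaptic receptor phosphatase). As a share of the RPR2-open regions of the gene, these 3 regions made up 8.82% at Gse1, 11.5% at Rbfox1, 12% at Auts2 and up to 50% at Prep, where 3 of 6 were RPR2-only. The genes were chosen for holding 3 or more RPR2-only regions, so shares above the 3.86% of all RPR2-open regions follow largely from that choice. Of these 25 genes, Ntn1 and Wwox each also held 1 RPR2;Nfibf/f-only region, and over all genes 68 held regions of both kinds. At Ptprd, other regions with a peak numbered 3 to 20 in RPR2;Nfibf/f libraries, against 12 in both 1373M1 libraries and 27 to 35 in the lymph node libraries, so that 1373M1 overlapped the RPR2;Nfibf/f range.

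By gene family, a somewhat larger share of RPR2-only regions than of either other set lay at listed genes. In a list of 64 families 247 regions (17.1%, exact binomial 95% interval 15.2 to 19.1) lay at a listed gene, against 11.5% of RPR2;Nfibf/f-only regions and 13.7% of the other RPR2-open regions. The interval takes regions as independent, which several regions of 1 gene are not, so it may be too narrow. The families were chosen with earlier results of these data known, and the shares are descriptions. Among families with at least 10 RPR2-only regions, 6 in all, the ADAMTS genes had the highest share relative to all RPR2-open regions. They held 12 regions (0.83%, against 0.214% of all RPR2-open regions), and 7 of the 12 were at Adamtsl1, with 1 each at Adamts3, Adamts9, Adamts17, Adamts20 and Adamtsl2. The semaphorin and plexin genes held 10 (0.692% against 0.353%), of which 3 were at Plxna4 and 1 each at Plxna1, Plxna2, Sema3c, Sema3e, Sema3f and 2 other semaphorin genes. Of its 31 genes 8 were involved, a share close to that of the ADAMTS genes with 6 of 24. Both families had 0 RPR2;Nfibf/f-only regions. At their shares of all RPR2-open regions few would lie among the 763, so that 0 says little.

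The immunoglobulin adhesion genes held 10 regions (0.692% against 0.438%), at Lsamp (3), Sdk1 (2), Cadm1, Igsf9b, Kirrel3, Ntm and 1 other gene. Solute carriers held 25 (1.73% against 2.03%), near their share of all RPR2-open regions. C2H2 zinc finger genes held 12 (0.83% against 1.67%). Set beside only those RPR2-open regions that some RPR2;Nfibf/f libraries lacked, their share was 0.83% against 0.792%, so that the gap came with the regions open in all 7 lines. In that comparison the immunoglobulin adhesion genes stood at 0.692% against 0.605%, a small gap, and the solute carriers at 1.73% in both. The ADAMTS genes stood at 0.83% against 0.264% and the semaphorin and plexin genes at 0.692% against 0.374%.

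Smaller families are given by their genes. Among neurotrophin and GDNF receptor genes, 1 RPR2-only region each lay at Ntrk2, a receptor of BDNF, Ngfr, a low-affinity neurotrophin receptor, and Ret and Gfra2, which form GDNF family receptors. Their mean ranks were 24.5 at Ntrk2, 13.8 at Ngfr, 29.6 at Ret and 29.6 at Gfra2, all below the median of the set, and these genes had 3 (Ntrk2) or 4 RPR2-open regions each. The 6 regions at sortilin genes (0.415%, against 0.102% of all RPR2-open regions) were at Sorcs2 (4), Sorl1 and Sort1. Teneurins and latrophilins, partners at synapses, held 6 (0.415% against 0.147%), at Tenm1, Tenm2, Tenm3 (2), Tenm4 and Adgrl3. They held 0 RPR2;Nfibf/f-only regions, which says little, since so small a share gives few among 763. The 9 at voltage-gated calcium channel genes (0.622% against 0.377%) were at Cacna1h (2), Cacna2d3 (2), Cacna1a, Cacna1c, Cacna1i, Cacna2d1 and 1 other gene. In the TGF-beta family the receptors Tgfbr2 (2), Acvr1 and Acvr1b, the ligand Gdf7 and the mediators Smad3 and Smad7 held 7 (0.484% against 0.297%). Beside only those RPR2-open regions that some RPR2;Nfibf/f libraries lacked, calcium channel genes stood at 0.622% against 0.495%, a smaller gap. In the same comparison sortilin genes stood at 0.415% against 0.11%. Teneurins and latrophilins stood at 0.415% against 0.209% and the TGF-beta family at 0.484% against 0.308%.

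Of the 64 families, 11 held no RPR2-only region. These were the neuroendocrine genes, with 47 RPR2-open regions, the KLF and SP factors (53), the Shank, Homer and Dlgap scaffolds (40), the NKX and PAX factors (38), the IRX, MEIS and PBX factors (37), the laminins (29), the MHC class I genes (29), the GATA and RUNX factors (26), the hepatocyte genes (11), the Hox clusters (8) and the MYC family (6). At the overall 3.86% each of these would hold few, so that 0 says little for the smaller ones.

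Some RPR2-only regions lay beside microRNA genes, at about the rate of other regions. A RefSeq hairpin lay within 10 kb of 22 of them (1.52%), against 1.18% of RPR2;Nfibf/f-only regions and 1.92% of the other RPR2-open regions. Of the 50 hairpins in this count, 13 and 15 lay near 2 RPR2-only regions in the imprinted cluster of chromosome 12 that holds Meg3, Rian and Mirg. The region with 15, at chr12:109711957-109712671, covered the hairpins of Mir1197 and Mir323. The region with 13, at chr12:109595493-109596537, lay 104 bp from Mir136. Shown are mature sequences from RefSeq (GRCm38.p6) for 4 hairpins under or close to these regions, for Mir9-3, a microRNA of the nervous system 549 bp from a region, and for the Mir181a-1 and Mir181b-1 pair, with the seed (bases 2 to 8) in capitals.
mmu-miR-1197-5p, chr12:109712361-109712381, plus strand: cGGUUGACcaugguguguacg
mmu-miR-758-5p, chr12:109712823-109712843, plus strand: uGGUUGACcagagagcacacg
mmu-miR-323-3p, chr12:109712558-109712578, plus strand: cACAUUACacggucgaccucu
mmu-miR-136-5p, chr12:109595331-109595352, plus strand: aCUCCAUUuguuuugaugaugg
mmu-miR-9-5p, chr7:79505279-79505301, plus strand: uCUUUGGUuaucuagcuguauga
mmu-miR-181a-5p, chr1:137966468-137966490, plus strand: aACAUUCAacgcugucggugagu
mmu-miR-181b-5p, chr1:137966650-137966673, plus strand: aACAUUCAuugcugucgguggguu

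By seed, miR-1197-5p and miR-758-5p share GGUUGAC, and miR-181a-5p and miR-181b-5p share ACAUUCA. The region over Mir1197 and Mir323 had a mean rank of 24.3, the one beside Mir136 68.8, the one at Mir9-3 5.23 and the one 6477 bp from Mir181b-1 62.4. Over the whole chromosome 12 cluster, 13 regions had a peak in some library, 4 were open in all RPR2 lines and 0 in all 7 lines. Regions with a peak there, the 2 RPR2-only ones left out, numbered 5, 6, 0, 0, 4, 1, 3 and 3 in the libraries of 1398M1, 1399M4, 1398P2 and 1399P1, against 5 and 5 in 1373M1, 2 and 3 in 12N1G and 3 and 5 in N2N1G. The genotypes overlapped, and only 1399M4 had no peak in the cluster.

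As a share of the RPR2-open regions of a chromosome, RPR2-only regions were highest on chromosomes 4, 6 and 14. By number, chromosomes 4 (139), 2 (122) and 6 (107) held the most. Chromosome 4 held 139 (9.61%), against 6.29% of RPR2;Nfibf/f-only and 7.26% of other RPR2-open regions. Of its RPR2-open regions 5.05% were RPR2-only, with 5.02% on chromosome 6 (107 regions) and 4.86% on chromosome 14 (69 regions), beside 3.86% overall. The lowest shares were 2.22% on chromosome 19, 2.4% on chromosome 3 and 3.09% on chromosome 11. On chromosome 4, 124 of the 139 lay outside the 1 Mb bins in which the local background of some line was raised to 3 or more times its genome-wide level. Over all chromosomes 19 RPR2-only regions (1.31%) lay in the 18 such bins, against 1.05% of RPR2;Nfibf/f-only and 1.47% of other RPR2-open regions.

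**Figure D3:**
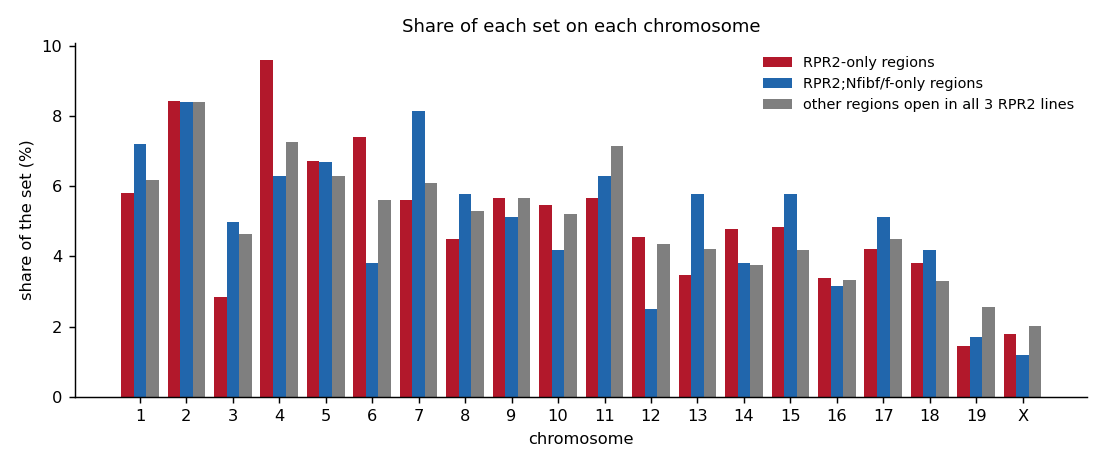
Share of RPR2-only regions (left bar), RPR2;Nfibf/f-only regions (middle) and other regions open in all 3 RPR2 lines (right) on each chromosome, in % of the set. Chromosome 4 carries 9.61% of RPR2-only regions, the highest bar of that set, against 6.29% and 7.26% of the others.

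Neighbouring RPR2-only regions lay closer than those of the next smaller set and about as close as those of a larger one. Gaps between neighbours had a median of 704 kb and 16.1% were within 100 kb. In the 1359 RPR2-open regions with a peak in 3 RPR2;Nfibf/f libraries the median was 845 kb and 10.6% were within 100 kb. In clusters of 2 or more regions, each within 100 kb of the next, lay 402 RPR2-only regions (27.8%, exact binomial 95% interval 25.5 to 30.2), against 14.3% of the 763 RPR2;Nfibf/f-only regions, 19.4% of the 1359 and 27.9% of the 1830 regions with a peak in 4 libraries. The interval of the clustered share takes regions as independent, although neighbours share a cluster, so it may be too narrow. Gaps shorten as a set grows, so only sets of about the same number compare directly. Clusters of 3 or more numbered 33, against 14 in the 1359 and 43 in the 1830, and the largest held 13 regions, against 5 and 7. Without bins of raised background the RPR2-only regions had 32 such clusters and the largest still held 13.

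**Figure D4:**
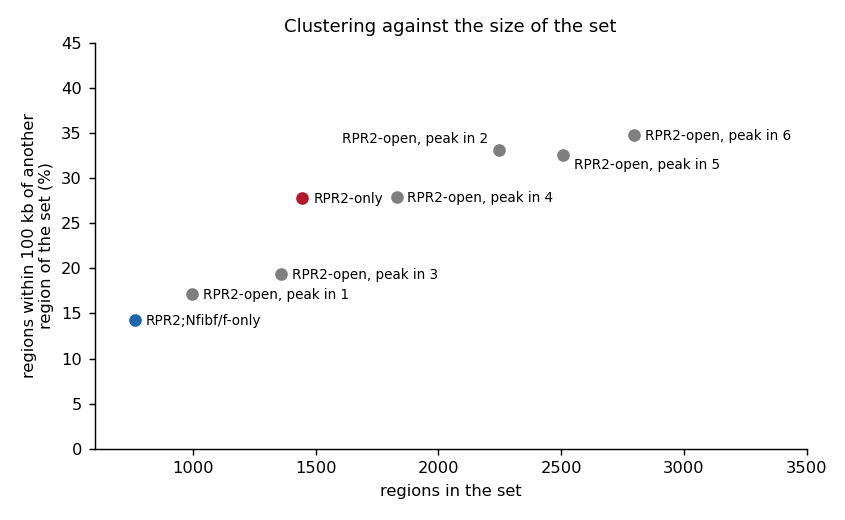
Share of regions within 100 kb of another region of the same set (%), against the number of regions in the set, for RPR2-only regions, RPR2;Nfibf/f-only regions and regions open in all RPR2 lines with a peak in 1 to 6 RPR2;Nfibf/f libraries. The RPR2-only point (1446 regions, 27.8%) lies above the set of 1359 regions (19.4%) and level with the set of 1830 (27.9%).

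The largest cluster lay at Grik3 and beside it on chromosome 4. It held 13 RPR2-only regions in 358 kb, at chr4:125317712-125676043, of which 4 were inside the gene and 9 outside it, 20036 to 171982 bp from its end with the lower coordinate. The span held 23 RPR2-open regions, 0 of them open in all 7 lines. Beside the 13 that the rule fixed, other regions with a peak there numbered 9 and 9 in 1398M1, 1 and 2 in 1399M4, 8 and 1 in 1398P2 and 12 and 9 in 1399P1, against 15 and 14 in 1373M1, 29 and 26 in 12N1G and 28 and 32 in N2N1G. With the RPR2-only regions left out, the genotypes did not overlap, with 1373M1 close to 1399P1 and the lymph node lines well above both. The span was chosen for its RPR2-only regions in the same lists, and 3 of its other regions had a peak in exactly 1 RPR2;Nfibf/f library. These counts are thus a description and no separate support. Local background was 1 to 2.13 times the genome-wide level in RPR2;Nfibf/f libraries, against 1.28 to 2.8 times in RPR2 libraries. The strongest region of the cluster, at chr4:125590079-125591004 inside Grik3, ranked 83.1 and 74.5 in 1373M1, 81.8 and 80.2 in 12N1G and 76.8 and 73.7 in N2N1G. The others had mean ranks of 17.8 to 62.6.

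The second cluster, of 8 regions, differed from all others in its background. It lay at chr4:123171595-123299600 over Hpcal4, Nt5c1a, Heyl and Pabpc4. Local background was 1.1 to 3.8 times the genome-wide level in RPR2;Nfibf/f libraries, against 33.4 to 51.2 times in RPR2 libraries. All 8 regions ranked at the bottom of the RPR2 lists, with mean ranks of 0.0402 to 0.745, although the number of other regions with a peak was 4 to 16 in RPR2;Nfibf/f libraries, against 20 to 34 in RPR2 libraries. The part of the background in these 8 regions was not tested.

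The other clusters named here showed no such background at this percentile. Magi1 on chromosome 6 and Septin9, a cytoskeletal GTPase gene, on chromosome 11 held 5 each. Clusters of 4 lay at Adamtsl1, at Nup210 with Hdac11 and Fbln2, at Nfib, and at chr4:131355678-131619900, where the nearest gene, Ptpru, was 149 kb away. In the last, background was 1.16 to 2.03 times the genome-wide level in RPR2;Nfibf/f libraries, against 2.31 to 3.49 times in RPR2 libraries. A compact cluster of 3 in 18.1 kb lay at chr2:179395243-179413362. Its span held 1 other region, with a peak in replicate 1 of 1398M1 alone. The last of the 10 was a cluster of 3 inside Prep, a prolyl endopeptidase gene.

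**Figure D5:**
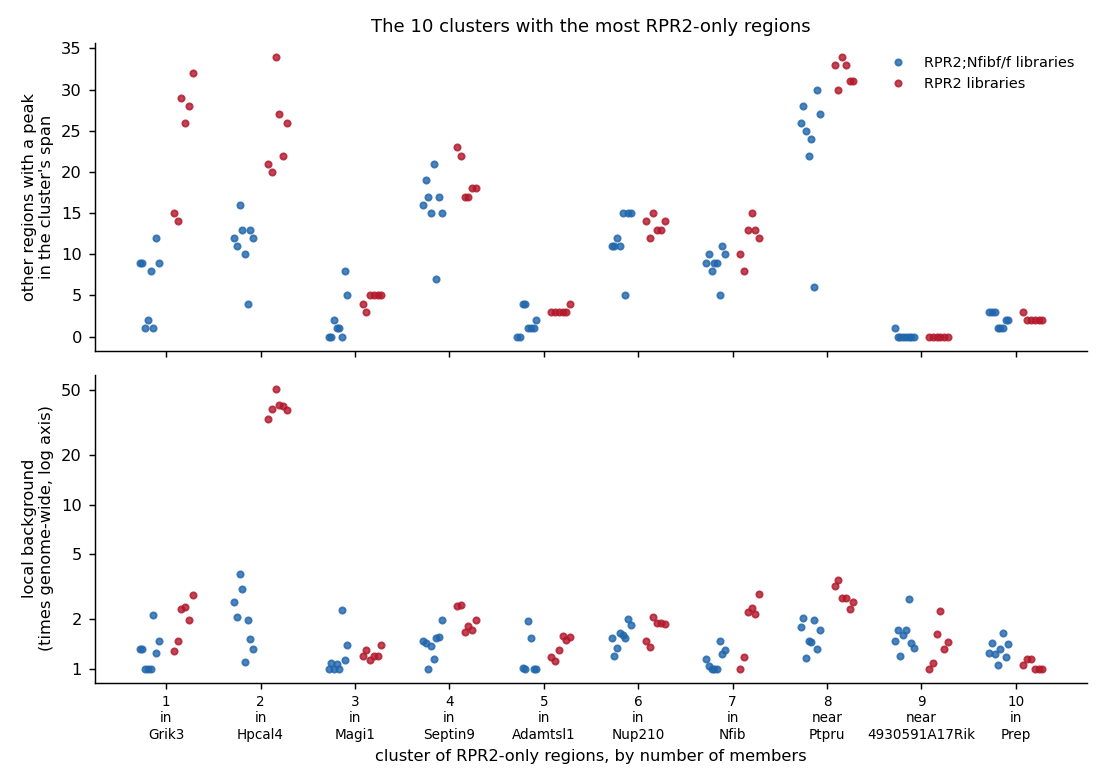
Number of regions with a peak, RPR2-only regions left out (upper panel), and local background in multiples of the genome-wide level (lower panel, log axis) in the span of each of the 10 clusters with the most RPR2-only regions. Local background is the 10th percentile over the summits of a span. Each point is a library, RPR2;Nfibf/f on the left and RPR2 on the right of each cluster. Background in the second cluster is 1.1 to 3.8 in RPR2;Nfibf/f libraries, against 33.4 to 51.2 in RPR2 libraries, and it is at most 3.49 in the other 9 clusters. In the upper panel the genotypes are apart in the first and second clusters and overlap in the other 8. The clusters were chosen for their RPR2-only regions in the same lists.

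In fixed bins of 1 Mb, 14 RPR2-only regions in the bin from 125 to 126 Mb of chromosome 4 were the most, and 3 other bins held 8. The bin from 137 to 138 Mb of chromosome 1 held 13 RPR2-open regions, 8 of them RPR2-only, and few peaks of any kind in the RPR2;Nfibf/f lines. With the 8 left out, regions with a peak there numbered 3, 3, 5, 5, 4, 1, 2 and 3 in the libraries of 1398M1, 1399M4, 1398P2 and 1399P1, against 15 and 14 in 1373M1, 11 and 14 in 12N1G and 10 and 12 in N2N1G. The genotypes did not overlap in these other regions, but the bin is named for its RPR2-only regions in the same lists, so this is no separate support. The 10th percentile of background in the RPR2 libraries was at the genome-wide level. The strong region near Nr5a2 described above and the one beside Mir181a-1 and Mir181b-1 both lay in this bin. In the bin from 94 to 95 Mb of chromosome 6, by contrast, 1399P1 had 67 and 61 regions with a peak outside the RPR2-only set, against 35 to 55 in the RPR2 libraries.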

How the data were processed

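ATAC-seq peak lists of 14 libraries from 7 mouse cell lines were analysed, 1 list per library. The submitters' processing notes name cutadapt 2.10, Bowtie2, Picard, SAMtools and MACS2 with the builds mm10 and GRCm38. What each did and with which settings was not given in the sources used here, and replicates were not pooled. For each peak the authors deposited a fold enrichment, which is a ratio of the summit over local background in the same library. They also deposited −log10 p and −log10 q values, with a lowest −log10 q of 1.3. The deposited integer score was not used. These lists hold no read counts, so a missing peak is not a measured absence, and the depth of a library is known only through the number of its peaks and its background.

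Peaks were merged with Python 3.11.15, NumPy 2.4.6 and pandas 2.3.3, and intervals were computed with SciPy 1.17.1. Fold enrichment was turned into a percentile rank within each library, since fold enrichment is not comparable between libraries. For regions with several peaks in a library, the strongest stood for its rank and the widest for its width in that library. Counts at loci without the RPR2-only regions and widths within single libraries were added after the other results were seen. The loci were chosen for their RPR2-only regions in the same lists, so such counts are no separate support. The local background was solved from the fold enrichment and p-value of each summit, as a Poisson mean, and 99.7% of 1192085 summits were solved within 0.002 on the −log10 p scale. It is given in multiples of the genome-wide level of the library, as the 10th percentile over the summits of a locus or bin. Summits solved below that level were left out. Most summits of a locus can thus have a higher background than the value given. Bins of 1 Mb with 3 or more times that level were called raised. Gene positions, promoter windows and microRNAs came from RefSeq tables of GRCm38.p6, which give no exons, so that exon, intron and UTR positions were not assigned. A gene took regions in its body or within 10 kb, and 123 regions fell to more than 1 gene. The code was tested on simulated data.

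Because the rule used all libraries, no test was made of the regions against other sets, and intervals cover sampling of regions only. The intervals take regions as independent and do not cover differences between lines. The members, families and markers were chosen with earlier results of these data known. Named are genes with 3 or more regions, the 10 clusters with the most regions, the 10 regions of highest mean rank, the first 20 regions at gene ends, up to 6 genes of a family, and the families of at least 10 regions with the highest and lowest shares. Regions whose value bears on a result given here are named beside it, and these and the promoters and microRNAs shown were picked after their values were seen. Values of a few genes and of 1 listed family are not reported here. Alternatives were a q-value limit, lists cut to equal length by p-value, each library or line left out, 12N1G and N2N1G as 1 line, other overlaps and other distances.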

Additional observations from a re-analysis of the deposited data

Results flagged for a closer look

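In 44 groups of libraries, each with 6 or 8 values, the value farthest from the rest was compared with the spread of the group, and 12 groups held a library that stood apart. Chance alone gives about 1 in 20 for independent values. Here 2 libraries come from each line and the groups share libraries, so the 12 cannot be set against that rate. In 7 of the 12 the library that stood apart was replicate 2 of 1398P2. It had 33519 peaks, against 67712 in the next RPR2;Nfibf/f library. It had 7 regions with a peak in the span of the Septin9 cluster, 5 at Nup210 and 6 near Ptpru, with 15, 11 and 22 in the next library. Its local background was 2.13 times the genome-wide level at Grik3, 2.28 at Magi1 and 2.66 at the cluster of chromosome 2, with 1.48, 1.4 and 1.72 in the next library.

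Replicate 2 of 1373M1 had 64975 peaks, the fewest of the RPR2 libraries, against 70271 in the next. It was also the library that most often lacked the single missing peak of regions seen in 5 of 6 RPR2 libraries, in 335 of them against 176 for replicate 1. The remaining 3 differ by 1 region with a peak. Replicate 2 of N2N1G had 8 at Adamtsl1 against 7, replicate 1 of 1373M1 had 6 at Prep against 5, and replicate 1 of 1398M1 had 1 in the cluster of chromosome 2 against 0. No cause was tested.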

How the results depend on the processing

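No paired analysis was possible because the results come from no test. The 1446 regions became 2889 when a line with a peak in 1 of its 2 libraries also counted as closed, and 1447 to 5546 when a library, a replicate or a line was left out, the most without 1373M1, with 2884 and 2986 without replicate 1 and 2 of all lines. Leaving these out moved the median width between 486 and 621.5 bp, the median rank between 41.8 and 53.8, the share near a gene end between 4.22% and 4.89%, the clustered share between 27.8% and 52% and the share in listed families between 14.4% and 17.1%. Without replicate 1 of all lines 40.7% were clustered. Without replicate 2 the width was 502.5 bp, the rank 42.4 and 42.4% were clustered. The rank was 43.1 without 12N1G and the width 493 bp without N2N1G. Lists of equal length gave a width of 724 bp, a rank of 50.6, 5.89% near a gene end and 25.2% clustered, and 455 regions with a single RPR2;Nfibf/f peak against 996, this last alternative being chosen after seeing the data. With 12N1G and N2N1G as 1 line the width was 528 bp, the rank 41.3 and the clustered share 35.8%. Gene ends within 500 bp held 3.04% and within 2 kb 6.98%. Clusters within 50 kb held 17.4% and within 250 kb 46.3%, and a flank of 50 kb put 24.6% in listed families. On lists of equal length the rule found no region at Atxn7l1, Foxp1, Gse1, Nfib, Ntn1 and Pabpc4, nor in the clusters at Nup210, Nfib, near Ptpru and on chromosome 2. Without bins of raised background, Pabpc4 and the cluster over it held 0 regions. The causes of these shifts were not tested. Peak calls depend on depth, so a weak peak missing from an RPR2;Nfibf/f library cannot be told apart from one below its calling limit.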
